A study of Homo sapiens with 16 samples.

Results

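The AP-1 transcription factors were examined as 10 genes chosen by name, out of the 60623 genes listed for each library: FOS, FOSB, FOSL1, FOSL2, JUN, JUNB, JUND, BATF, BATF3 and ATF3. The choice was made with earlier results of these data known. All 10 passed the filter on low counts in both experiments, and no library held fewer than 32 counts of any of them. RNA-Seq was done in MUTZ-3, an acute myeloid leukemia cell line whose inversion of chromosome 3 brings EVI1 (gene symbol MECOM) under a distant enhancer, grown with serum, GM-CSF and medium conditioned by the bladder carcinoma line 5637. In the PARP inhibitor (PARPi) experiment, olaparib at 10 µM, talazoparib at 1 µM or DMSO as the vehicle was given for 12, 24 or 48 h, and a further library was made from untreated cells at 0 h. In the knockdown experiment, cells carried a pLKO.1 lentivirus with a non-targeting control (NTC, SHC002) or an shRNA against EVI1 (shEVI1-2531 or shEVI1-2532), were selected with puromycin, and were taken at day 3 and day 6. Each of the 16 conditions was 1 library of this single cell line. Every p-value below therefore measures only the spread left between libraries once the time point or day is accounted for, partly shared across genes by the fit. For effects averaged over hours or days, a change of the effect with time also counts as spread. No source used here says whether the libraries came from separate cultures.

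AP-1 is not a single protein but a set of basic leucine zipper (bZIP) dimers. JUN proteins pair with each other or with FOS proteins, whereas FOS proteins need a partner, and BATF, BATF3 and ATF3 join JUN proteins in dimers with other preferences. Several AP-1 genes are immediate early genes, transcribed within minutes of a growth factor or stress signal that runs through MAP kinases to the serum response factor and its ternary complex partners. In myeloid cells AP-1 is known for its part in monocyte and macrophage differentiation.

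The libraries held between 55999673 and 72681943 counts in the PARPi experiment and between 95523038 and 120716213 in the knockdown experiment. Levels are given as CPM, counts divided by the size of the library after scaling by the trimmed mean of M-values (TMM), and 3 counts, the limit that a count of 0 allows, correspond to at most 0.0536 CPM. MECOM was at 40.6 and 37.2 CPM with NTC on days 3 and 6, at 13.2 and 17.5 with shEVI1-2531, and at 5.14 and 4.31 with shEVI1-2532, so that both shRNA labels matched their target. The leukocyte gene PTPRC (303 to 564 CPM) and the myeloid genes MPO (at least 599.5 CPM) and SPI1 (at least 192 CPM) were present in every library, while the epithelial and B cell genes CDH1 and MS4A1 had at most 1 count in any library. The progenitor genes CD34 (3.61 to 644 CPM) and KIT (9.45 to 128.5 CPM) varied widely. The summed level of the 4 monocyte genes CD14, LYZ, CSF1R and FCGR1A also varied, from 338 to 5903 CPM, and is given beside the results it moved with. Its high values were mostly LYZ, which ranged from 154 to 5605 CPM. CD14 reached at most 96.1, FCGR1A 106 and CSF1R 301 CPM.

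Per kilobase of exon, the JUN-like partners JUNB and JUND and the JUN-binding BATF stood highest, with median levels over the 16 libraries of 42.3, 34.1 and 26.0 CPM per kb. FOSL2, the FOS relative with the highest level, followed at 16.8 and FOSL1 at 4.93 CPM per kb. ATF3 (2.10), JUN (1.73), FOS (1.20), BATF3 (0.553) and FOSB (0.142 CPM per kb) came last. The ranges of all neighbours in this order overlapped across the libraries. FOSB had the lowest median and the widest span, from 0.0696 to 22.3 CPM per kb, and BATF the narrowest, with a highest level 2.38 times its lowest. The classical pair FOS and JUN thus made up a small share of the RNA of their own subfamilies. FOSL2 gave between 42.4% and 80.0% of the summed per-kb level of the FOS subfamily in each library and FOS at most 17.6%. JUN gave at most 6.39% of the JUN subfamily, and JUNB and JUND the rest.

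In GRCh38, as the files give it, JUN (58780791 to 58784047, minus strand), ATF3 (212565334 to 212620777, plus) and BATF3 (212686417 to 212699840, minus) lie on chromosome 1. FOS (75278826 to 75282230) and BATF (75522455 to 75547004) lie on the plus strand of chromosome 14, FOSL1 (65892049 to 65900573) on the minus strand of chromosome 11, and FOSL2 (28392448 to 28417317) on the plus strand of chromosome 2. On chromosome 19 are JUNB (12791486 to 12793315, plus), JUND (18279694 to 18281622, minus) and FOSB. JUNB lies within the span of HOOK2 on the other strand, which had at most 614 counts against at least 2626 of JUNB.

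**Figure D1:**
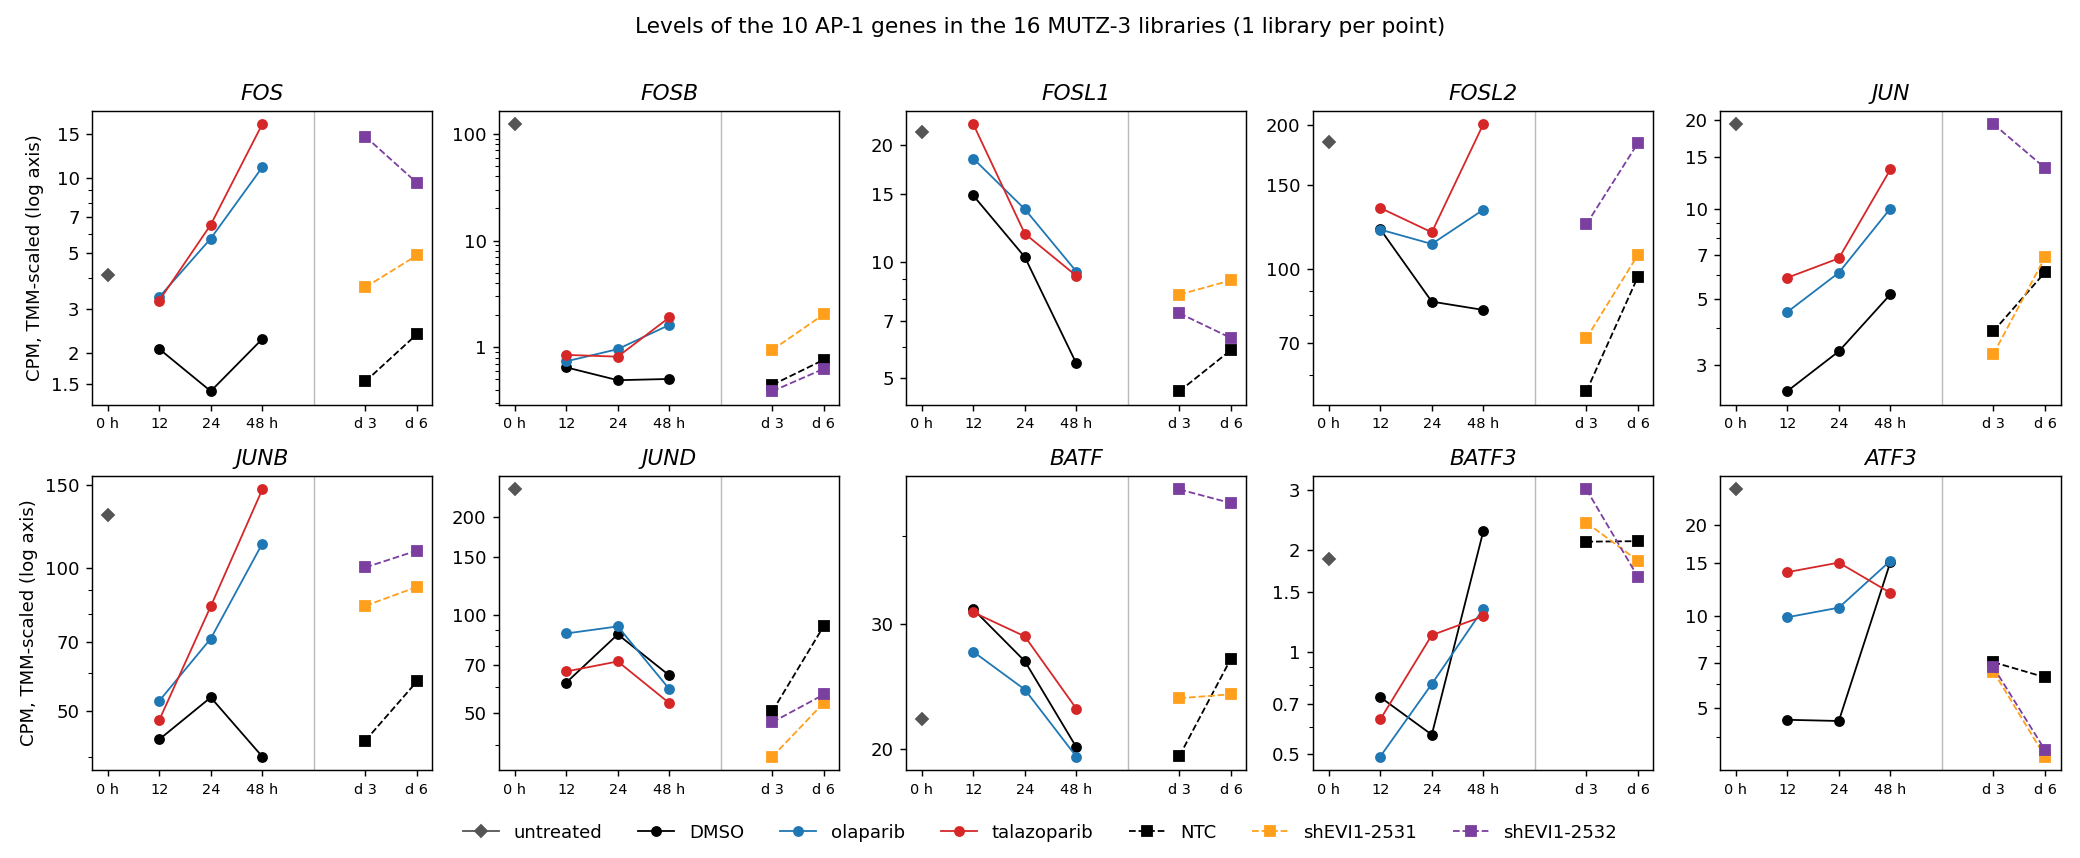
TMM-scaled CPM (log axes that differ between panels) of the 10 AP-1 genes, 1 point per library; grey diamonds are untreated cells at 0 h, circles DMSO and the inhibitors at 12, 24 and 48 h, and squares NTC and the shRNAs at days 3 and 6. FOSB in untreated cells, at 124 CPM, stands far above the 15 other libraries, whereas FOS and JUNB climb with time under both inhibitors.

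**Figure D2:**
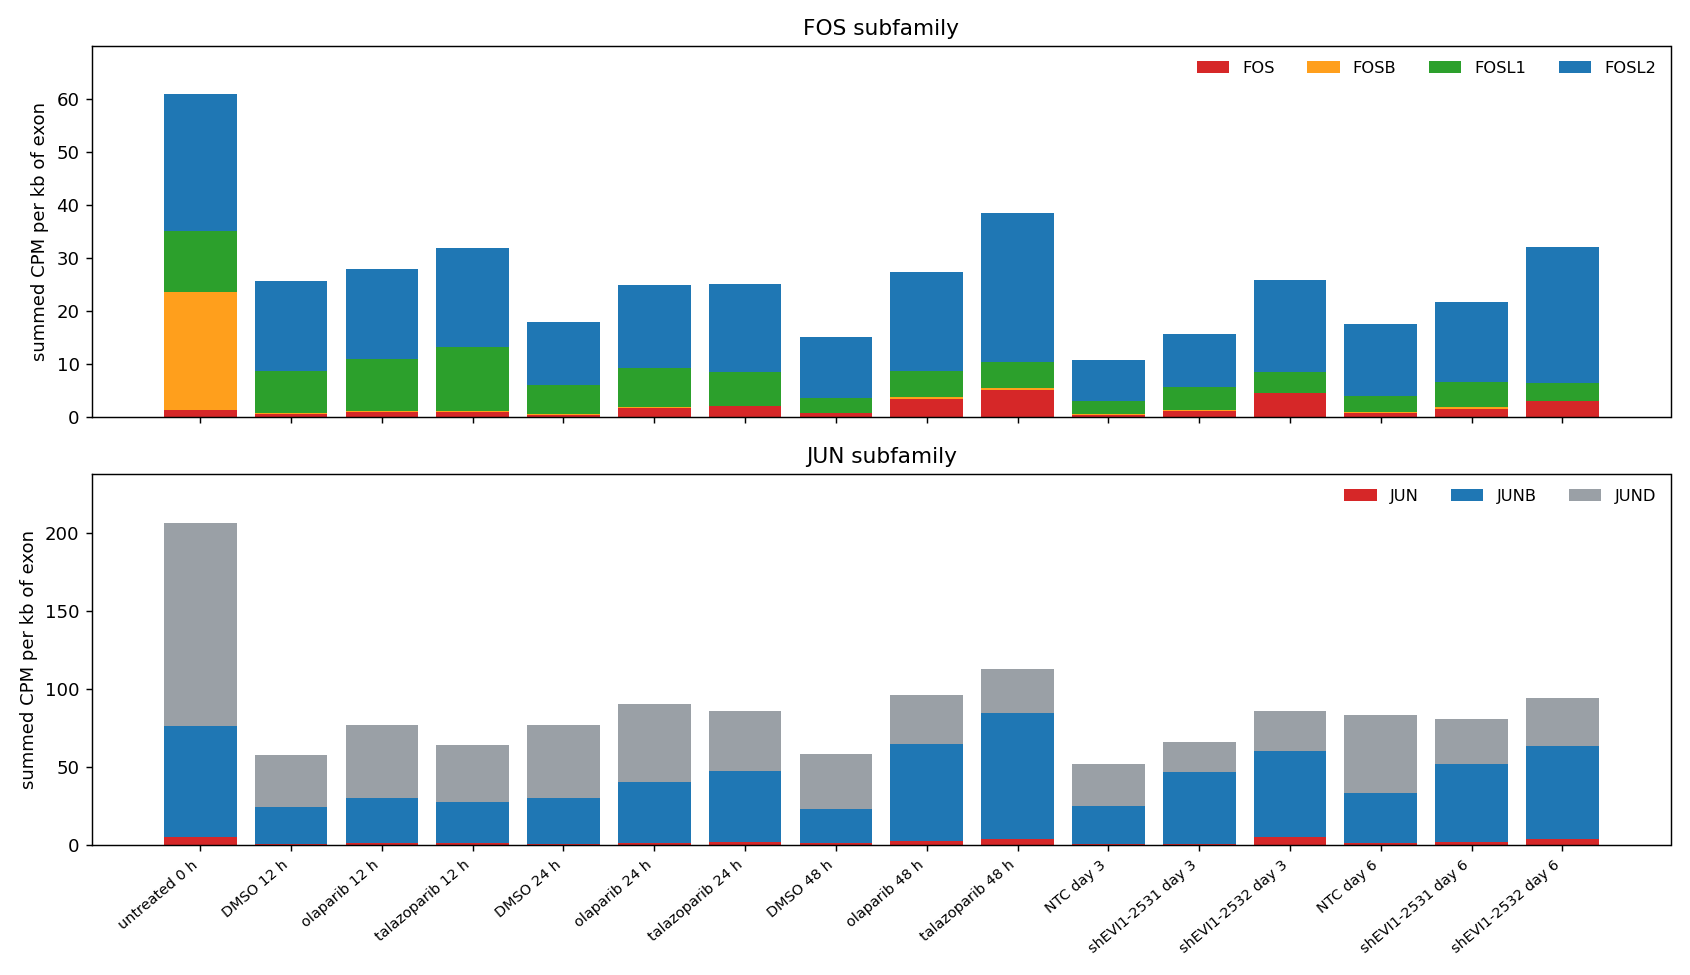
Summed TMM-scaled CPM per kb of exon of the FOS subfamily (top) and the JUN subfamily (bottom) in each of the 16 libraries, with each bar divided by gene. FOSL2 fills most of the FOS subfamily outside untreated cells. JUNB takes a larger share than JUND with talazoparib at 24 h, with both inhibitors at 48 h and in all 4 shRNA libraries.

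The start of FOSB, of FOS and of JUND is shown because these genes stand for 3 ways in which members moved: FOSB in untreated cells, FOS under inhibitors and shRNAs, and JUND in the other direction after knockdown. The stretches run from 210 to 51 bases before the RefSeq start (GRCh38.p14), with the motifs TGACGT and TGACGTCA, in either orientation, in capitals; these letters are part or all of the cyclic AMP response element, which JUN-ATF and CREB dimers bind.
FOSB, chr19:45467786-45467945, plus strand: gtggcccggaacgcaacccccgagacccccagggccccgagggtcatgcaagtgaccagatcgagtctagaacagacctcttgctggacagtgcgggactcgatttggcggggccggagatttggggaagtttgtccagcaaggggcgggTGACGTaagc
FOS, chr14:75278618-75278777, plus strand: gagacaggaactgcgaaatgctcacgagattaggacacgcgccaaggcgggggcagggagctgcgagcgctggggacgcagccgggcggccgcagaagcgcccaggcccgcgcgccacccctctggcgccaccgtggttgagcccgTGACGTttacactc
JUND, chr19:18281673-18281832, minus strand: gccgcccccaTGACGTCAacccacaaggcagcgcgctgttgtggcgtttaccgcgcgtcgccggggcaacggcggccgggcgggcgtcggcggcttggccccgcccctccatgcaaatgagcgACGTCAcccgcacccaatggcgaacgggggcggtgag

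TGACGT began 60 bases before the start of FOSB, 64 before that of FOS and 66 before that of FOSL2, whose promoter is not shown. JUND held the full TGACGTCA 200 bases before its start and a second TGACGT on the other strand. Neither motif was found in the 250 bases before the starts of JUN, JUNB, BATF and ATF3, so the printed stretches do not represent all members. Of the 35116 promoter windows of 250 bases in the RefSeq table, 7.1% held TGACGT and 1.65% TGACGTCA (each TGACGTCA also counts as TGACGT, on both strands). The AP-1 motif TGANTCA, in 6.57% of windows, and the CArG box of the serum response factor, in 1.16%, were not found in the 250 bases before the start of any of the 8 members that matched the table; FOSL1 and BATF3 had no entry. A match is a description of the letters and not evidence of binding.

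In untreated cells the FOS relative FOSB, an immediate early gene product able to pair with JUN proteins, was the AP-1 gene that differed most from the vehicle. FOSB had 8539 counts (124 CPM) at 0 h against 44, 37 and 33 counts (0.647, 0.490 and 0.503 CPM) with DMSO at 12, 24 and 48 h. The 0 h library was thus 191, 252 and 246 times higher, and no other library of the series went beyond 2.04 CPM. FOSB (chromosome 19, 45467995 to 45475179, plus strand) lies within the span of the DNA repair gene ERCC1 on the other strand (45407333 to 45478828), and the setting for strand in the counting was not given in the sources used here. ERCC1 itself was nearly level, at 68.5 CPM in untreated cells and 62.3, 58.1 and 58.9 CPM with DMSO.

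Most of the other AP-1 genes were also higher in the untreated library, whereas BATF and BATF3 lay within their DMSO values. JUN was at 19.3 CPM against 2.44, 3.33 and 5.17 with DMSO at 12, 24 and 48 h, so its log2 ratio shrank along the DMSO series from 2.99 (95% counting interval 2.75 to 3.23) to 1.90 (1.73 to 2.08). The stress-induced ATF3 was at 26.2 CPM against 4.56, 4.52 and 15.1, and only the last of these came near it. JUND was at 242 CPM against 61.9, 87.1 and 65.2, and JUNB at 129 against 43.5, 53.4 and 40.1. These untreated levels of JUND and ATF3 were the highest of all 16 libraries.

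FOS, the founding member, was at 4.10 CPM against 2.07, 1.40 and 2.27 with DMSO, which put it between 0.85 and 1.55 higher on the log2 scale. FOSL2 was at 185 CPM against 121, 85.5 and 82.1, and FOSL1 at 21.6 against 14.8, 10.3 and 5.45. BATF, at 22.0 CPM, lay within its DMSO values of 20.1 to 31.5, and BATF3, at 1.88, lay within its values of 0.570 to 2.27. In all, 6, 9 and 6 of the 10 genes were more than 2-fold higher in untreated cells than with DMSO at 12, 24 and 48 h and none was lower by as much, where 10.3%, 11.6% and 15.3% of all 17382 genes measured in the PARPi libraries were beyond 2-fold in either direction. The median log2 ratio of the 10 was 1.46, 1.51 and 1.43, and that of all genes 0.00, 0.01 and -0.01. With 1 untreated library no test was possible; the intervals cover counting error only, and the absence of vehicle and the time in culture cannot be told apart.

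Genes on lists related to AP-1, drawn up with earlier results of these data known, were in part higher in the same library. Of 19 immediate early genes measured, not counting the AP-1 genes, 16, 16 and 17 were more than 2-fold above DMSO at 12, 24 and 48 h and none was below by as much, with medians of 1.86 at 12 h and 1.88 at 48 h. EGR3, a zinc finger factor, had 2928 counts at 0 h against 36 with DMSO at 12 h, and the nuclear receptor NR4A1 had 1628 against 77; both were picked out after their values were seen. Of 14 MAP kinase feedback phosphatases and inhibitors, 7, 8 and 8 were higher by more than 2-fold, among them DUSP8, a phosphatase of JNK and p38, at 7.62 CPM against 0.133 with DMSO at 24 h. Reported AP-1 target genes followed in smaller number, 6, 6 and 9 of 19. By contrast, the kinases upstream of AP-1 were nearly level, with 2, 1 and 2 of 25 higher and 1 lower each time. Of all genes, 10.3%, 11.6% and 15.3% were beyond 2-fold in either direction.

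**Figure D3:**
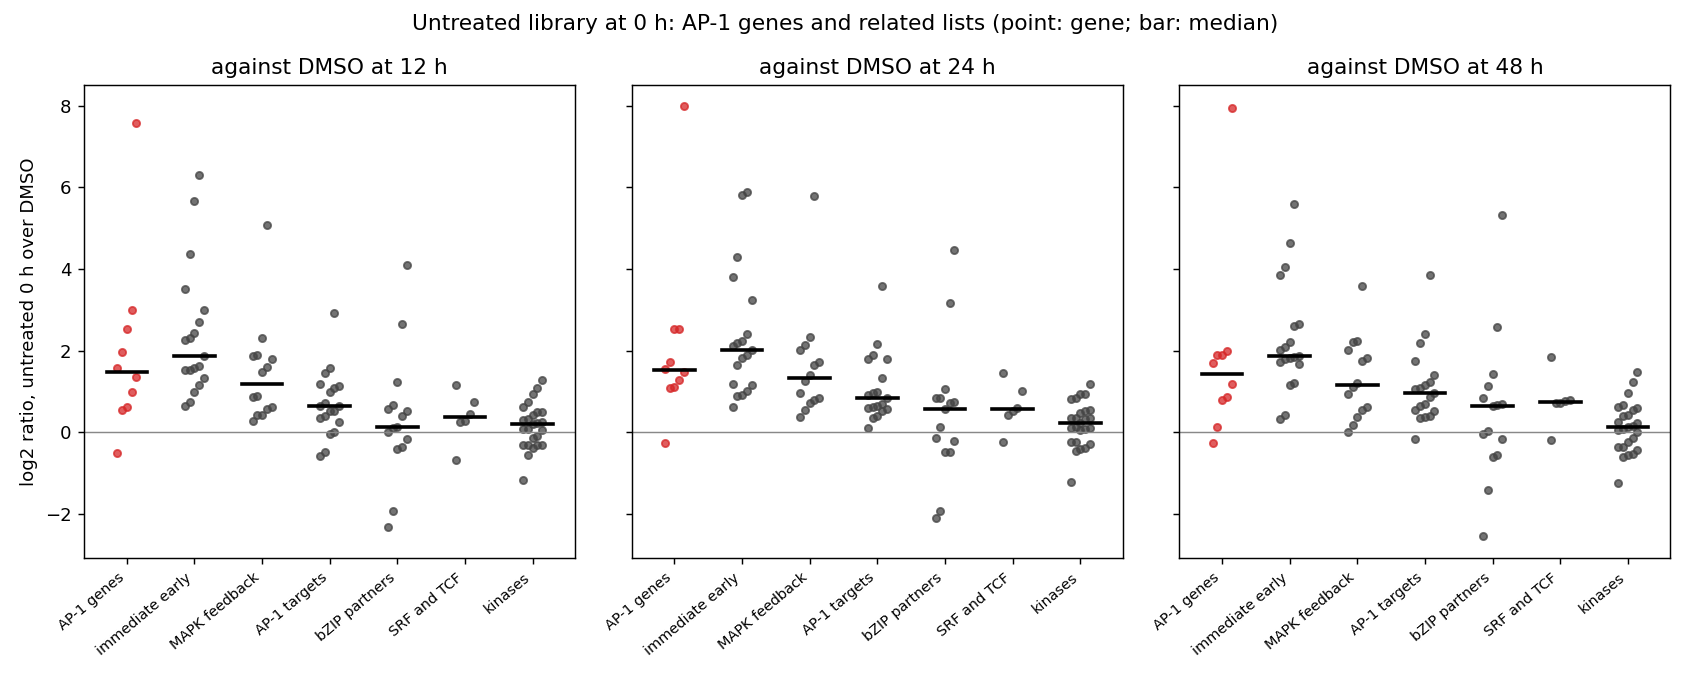
Log2 ratio of the untreated 0 h library to DMSO at 12, 24 and 48 h (3 panels) for the 10 AP-1 genes (red) and the genes of 6 related lists (grey), with 1 point per gene and a bar at the median. The AP-1 genes and the immediate early genes lie mostly above 1, FOSB stands alone near 8, and the medians of the bZIP partners and kinases stay under 1.

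The DMSO libraries were themselves not level over time. Between 12 and 48 h with vehicle, FOSL1 was 1.45 lower on the log2 scale (14.8 to 5.45 CPM), while JUN, BATF3 and ATF3 were 1.08, 1.63 and 1.73 higher. ATF3 and BATF3 changed between 24 and 48 h, ATF3 from 4.52 to 15.1 CPM and BATF3 from 0.570 to 2.27 CPM. These 4 genes were the members beyond 2-fold, where 10.4% of all genes were. The inhibitor libraries are compared below with DMSO of the same hour, and both inhibitors share those DMSO libraries.

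Under PARP inhibition the 2 classical partners, FOS and JUN, rose against DMSO of the same hour. Olaparib and talazoparib both block PARP1 catalysis, and talazoparib is also a strong trapper of PARP1 on DNA; their doses differed 10-fold. FOS was at 2.07, 1.40 and 2.27 CPM with DMSO at 12, 24 and 48 h, at 3.34, 5.74 and 11.1 with olaparib, and at 3.24, 6.52 and 16.5 with talazoparib. All 6 inhibitor libraries were above all 3 DMSO libraries, and the distance widened with time. Untreated FOS, at 4.10 CPM, was above both inhibitors at 12 h and below them at 24 and 48 h. Averaged over both inhibitors, FOS rose by 1.74 on the log2 scale (SE 0.35, adjusted p = 0.0411, edgeR quasi-likelihood test with Benjamini-Hochberg adjustment over 17218 genes).

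JUN behaved differently in time. It was at 2.44, 3.33 and 5.17 CPM with DMSO, at 4.51, 6.12 and 10.1 with olaparib, and at 5.89, 6.84 and 13.6 with talazoparib. All of these were below the 19.3 CPM of untreated cells. Because the DMSO series climbed as well, the ranges of treated and vehicle libraries overlapped, but at each hour both inhibitor libraries were above DMSO, by 0.88 to 1.40 on the log2 scale. JUN rose by 1.07 for the mean of both inhibitors (SE 0.12, adjusted p = 0.0127), by 0.91 with olaparib (SE 0.14, adjusted p = 0.0379) and by 1.24 with talazoparib (SE 0.14, adjusted p = 0.0135). FOS passed with talazoparib (1.88, SE 0.38, adjusted p = 0.0456) and not with olaparib (1.60, SE 0.38, adjusted p = 0.116).

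FOS and JUN were the 2 of 10 members past the threshold for the mean of both inhibitors, both higher, where 4.17% of all genes passed and 3.16% were higher. For olaparib it was 1 member (0.639% of all genes), and for talazoparib 2 members, both higher (4.0% of all genes, 3.0% higher). These calls rested on few libraries: no member was called when DMSO 24 h, olaparib 24 h, talazoparib 24 h or olaparib 48 h was left out, or when the model held no term for time. For the mean of both, 1 member was called without olaparib 12 h, 6 without DMSO 12 h and 6 by DESeq2, all higher. Over all 17218 genes, DESeq2 called 1836 higher and 1580 lower for this mean, against 544 and 174 by edgeR. The 8 others had estimates from -0.21 (BATF3, SE 0.28, adjusted p = 0.613) to 0.95 (FOSB, SE 0.29, adjusted p = 0.069). Of these, JUND (-0.01) and BATF (-0.02) were nearest to no difference, with 95% intervals of -0.27 to 0.26 and -0.23 to 0.19.

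The effect of the inhibitors on several members grew between 12 and 48 h. The change in the log2 effect for each doubling of the hours, averaged over both inhibitors, passed the threshold for 5 of 10 members, 4 upward and 1 downward, where 19.8% of all genes passed, 10.0% upward and 9.82% downward. FOS gained 0.95 per doubling (SE 0.17, adjusted p = 8.4e-07), so that its log2 ratios to DMSO ran from 0.69 through 2.03 to 2.29 with olaparib and from 0.64 through 2.21 to 2.86 with talazoparib. JUN had a slope of 0.06 (SE 0.16, adjusted p = 0.865), which left its effect near the same size at each hour.

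JUNB, a JUN relative that often holds back JUN activity, also gained on its control with time. With DMSO it was at 43.5, 53.4 and 40.1 CPM, with olaparib at 52.5, 71.0 and 113, and with talazoparib at 47.8, 83.1 and 147. The 3 arms lay close together at 12 h and far apart at 48 h, and the slope was 0.74 per doubling (SE 0.14, adjusted p = 1.3e-06). At 48 h JUNB therefore made up 64.1% and 71.2% of the per-kb JUN subfamily with olaparib and talazoparib, against 37.7% with DMSO.

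FOSL2 and FOSB also gained with time, from different levels. FOSL2 was at 121, 85.5 and 82.1 CPM with DMSO, at 121, 113 and 133 with olaparib, and at 134, 119 and 201 with talazoparib, with a slope of 0.46 (SE 0.13, adjusted p = 0.0043). FOSB stayed under 2 CPM, at 0.647, 0.490 and 0.503 with DMSO, 0.736, 0.959 and 1.62 with olaparib and 0.847, 0.815 and 1.90 with talazoparib, with a slope of 0.75 (SE 0.27, adjusted p = 0.0351). Neither slope passed when counts were scaled to the library total, under which 2 members passed upward and 1 downward.

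ATF3 was the member that ran the other way. With DMSO it was at 4.56, 4.52 and 15.1 CPM, with olaparib at 9.92, 10.7 and 15.2, and with talazoparib at 14.0, 15.0 and 11.9. Its log2 ratio to DMSO was 1.12 and 1.24 with olaparib and 1.62 and 1.73 with talazoparib at 12 and 24 h, and 0.02 and -0.34 at 48 h, where DMSO had climbed to the level of the inhibitors. The slope was -0.78 per doubling (SE 0.14, adjusted p = 1.5e-06), and without the DMSO 48 h library ATF3 passed the threshold for olaparib and for talazoparib. The inhibitor libraries of ATF3 thus stayed within 9.92 to 15.2 CPM at all hours.

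FOSL1 was above DMSO in all 6 inhibitor libraries, by 0.20 to 0.79 on the log2 scale, along a level that dropped with time in every arm; its mean of 0.51 (SE 0.13, adjusted p = 0.0567) missed the threshold. BATF3, at 0.491 to 2.27 CPM, had ratios on both sides of 0 with wide counting intervals. Members more than 2-fold above DMSO numbered 1 and 2 at 12 h, 2 and 3 at 24 h, and 3 and 5 at 48 h with olaparib and talazoparib, where 3.11%, 3.44%, 6.27%, 9.07%, 12.1% and 16.7% of all genes were higher by as much. No member was lower by 2-fold.

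**Figure D4:**
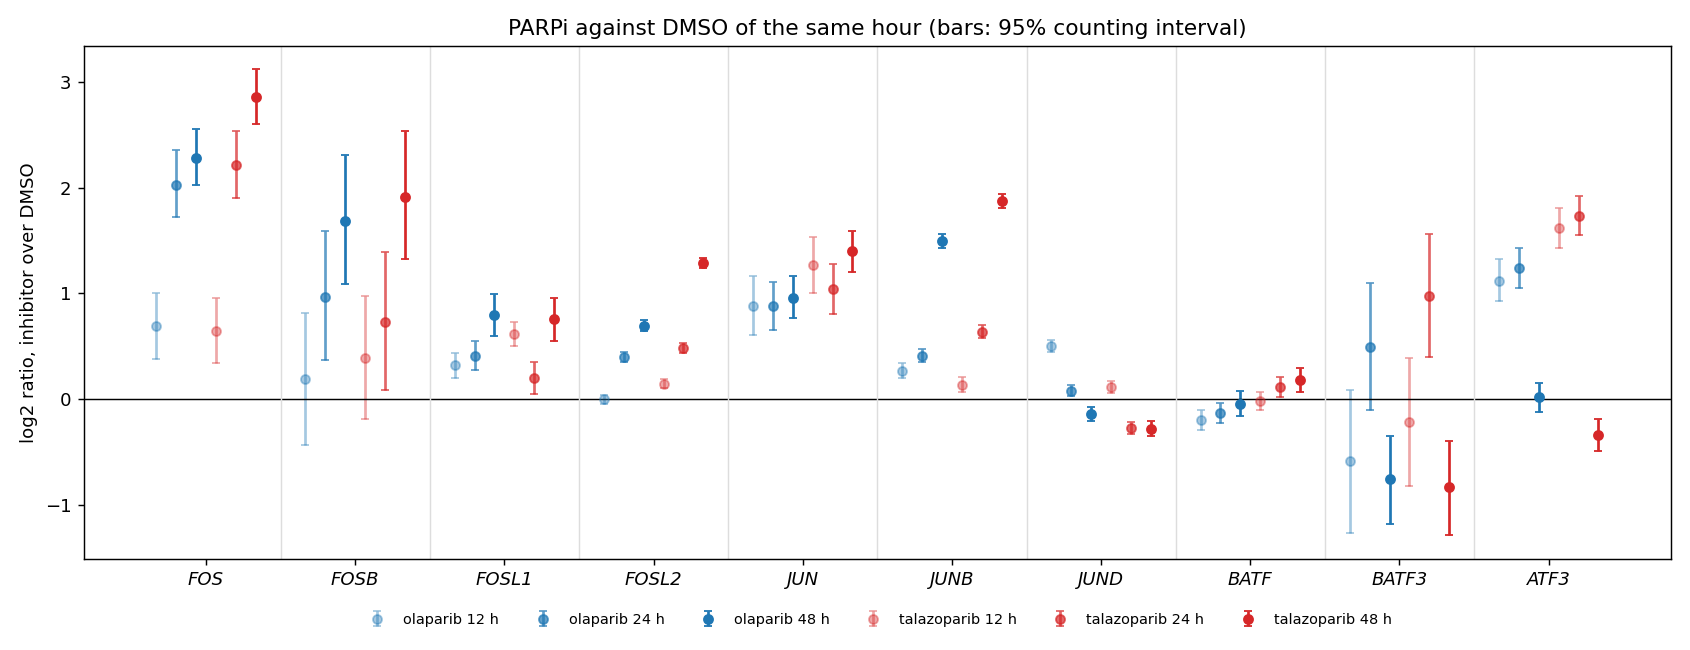
Log2 ratio of each inhibitor library to DMSO of the same hour for the 10 AP-1 genes, in blue for olaparib and red for talazoparib, paler at 12 and 24 h, with 95% counting intervals as bars. FOS, FOSB, FOSL2 and JUNB move upward from 12 to 48 h, JUN stays near 1 and ATF3 comes back to near 0 at 48 h.

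No member differed between the inhibitors at the doses used (0 of 10), nor did any of the 17218 genes tested, of which 354 had an unadjusted p under 0.05; DESeq2 called 1 gene. The widest differences, talazoparib over olaparib, were 0.33 for JUN (95% interval 0.02 to 0.64) and -0.30 for JUND (-0.61 to 0.01), each with an adjusted p of 0.952. For FOS the interval ran from -0.53 to 1.09, so differences of either sign remain possible. Since the doses were 10 and 1 µM, these values stand side by side and do not compare the compounds at a matched dose.

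The related lists, drawn up with earlier results of these data known, moved with FOS and JUN in part. For the mean of both inhibitors, 10 of 19 immediate early genes rose and none fell, with a median of 1.17 against -0.01 for all genes. Of all genes, 4.17% passed for this mean and 3.16% were higher. They included the zinc finger factors EGR1 (1.52, adjusted p = 0.0131) and EGR2 (2.36, adjusted p = 0.0196) and the antiproliferative gene BTG2 (1.79, adjusted p = 0.0131). Of 19 reported AP-1 targets 4 rose, among them the cytokines TNF (1.91, adjusted p = 0.0335), IL1B (2.01, adjusted p = 0.0358) and CCL2 (1.67, adjusted p = 0.0459). The feedback inhibitor SPRY4 (2.12, adjusted p = 0.0235) and the phosphatase DUSP4 (0.69, adjusted p = 0.0358) were the 2 of 14 feedback genes that rose. None of the 15 bZIP partners, 25 kinases or 6 SRF and ternary complex factors passed (0 by edgeR in each list). In lists of this size, 0 is near the 4.17% of all genes that passed.

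Monocyte genes moved beside these results. Their summed level was 441, 585 and 602 CPM with DMSO at 12, 24 and 48 h. It was 471, 829 and 2281 with olaparib, and 548, 1315 and 4418 with talazoparib. Of the 4 genes, 3 passed the test of change with time, all upward, where 10.0% of all genes passed upward. None of the 4 passed for either inhibitor or their mean. MECOM moved downward, from 44.6 to 23.3 CPM with olaparib and from 45.0 to 9.98 with talazoparib. With DMSO it went from 48.8 at 12 h to 61.8 at 48 h, and untreated cells were at 28.3 CPM. Its slope was -0.94 per doubling (SE 0.13, adjusted p = 7.5e-11). The mean of both inhibitors over all hours did not pass the edgeR test (-0.92, SE 0.33, adjusted p = 0.0972). The progenitor genes CD34 (-0.83 per doubling, adjusted p = 6.0e-09) and KIT (-0.80, adjusted p = 5.4e-08) moved downward as well. Of the 7 genes on the progenitor list (PTPRC, CD34, CD33, MPO, KIT, SPI1 and CSF2RA), 3 passed downward and 1 upward. Of all genes, 9.82% passed downward and 10.0% upward. None of the 7 passed for either inhibitor or their mean. In bulk RNA a larger share of cells with a given gene and more RNA per cell cannot be told apart, and the part of either in the AP-1 values was not tested.

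EVI1 knockdown was followed by higher FOS with both shRNAs. FOS was at 1.54 and 2.38 CPM with NTC at days 3 and 6, at 3.66 and 4.91 with shEVI1-2531, and at 14.7 and 9.59 with shEVI1-2532. The 3 arms did not overlap. FOS rose by 1.14 with shEVI1-2531 (SE 0.28, adjusted p = 0.0152) and by 2.66 with shEVI1-2532 (SE 0.29, adjusted p = 2.2e-05), and the shRNAs differed by 1.52 (SE 0.28, adjusted p = 0.0021).

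JUNB was the other member that rose with each shRNA. It was at 43.3 and 57.7 CPM with NTC, at 83.3 and 91.3 with shEVI1-2531 and at 100.4 and 109 with shEVI1-2532. All 4 shRNA libraries were above both NTC libraries, with a rise of 0.80 (SE 0.14, adjusted p = 0.0019) and 1.06 (SE 0.14, adjusted p = 7.6e-05). The difference between the shRNAs was 0.26, with a 95% interval of -0.03 to 0.56.

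JUN, FOSL2 and BATF rose with shEVI1-2532. JUN was at 3.89 and 6.14 CPM with NTC, at 3.26 and 6.89 with shEVI1-2531 and at 19.4 and 13.8 with shEVI1-2532, a rise of 1.80 (SE 0.30, adjusted p = 0.00055), while with shEVI1-2531 its estimate was 0.00 (SE 0.29). FOSL2 was at 55.5 and 96.5 CPM with NTC, at 71.7 and 107 with shEVI1-2531 and at 124 and 184 with shEVI1-2532, a rise of 1.04 (SE 0.13, adjusted p = 6.4e-05). BATF, a bZIP factor of immune cells that pairs with JUN proteins, was at 19.6 and 26.8 CPM with NTC, at 23.6 and 23.9 with shEVI1-2531 and at 46.5 and 44.5 with shEVI1-2532, a rise of 0.98 (SE 0.17, adjusted p = 0.0008). The shRNAs differed in all 3 genes, by 1.81 for JUN (adjusted p = 0.0014), 0.78 for FOSL2 (adjusted p = 0.0012) and 0.94 for BATF (adjusted p = 0.0023).

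FOSB and FOSL1 rose with shEVI1-2531 and did not pass with shEVI1-2532. FOSB was at 0.443 and 0.764 CPM with NTC, at 0.944 and 2.04 with shEVI1-2531 and at 0.387 and 0.629 with shEVI1-2532. It rose by 1.26 with the first (SE 0.30, adjusted p = 0.0118) and was lower with the second than with the first by 1.51 (SE 0.31, adjusted p = 0.0041). FOSL1 was at 4.62 and 5.90 CPM with NTC, at 8.22 and 8.94 with shEVI1-2531 and at 7.35 and 6.34 with shEVI1-2532, a rise of 0.71 with shEVI1-2531 (SE 0.20, adjusted p = 0.0323), and its difference between shRNAs did not pass (-0.32, 95% interval -0.77 to 0.12).

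JUND moved down. It was at 50.7 and 92.7 CPM with NTC, at 36.7 and 53.8 with shEVI1-2531 and at 46.9 and 57.0 with shEVI1-2532, and each shRNA library was below NTC of its day. JUND fell by 0.63 on the log2 scale with shEVI1-2531 (SE 0.16, adjusted p = 0.0165) and had an estimate of -0.41 with shEVI1-2532 (SE 0.16, adjusted p = 0.0562). JUNB thereby changed places with JUND: JUNB was 45.7% and 38.1% of the per-kb JUN subfamily with NTC, and 61.9% to 68.9% with the shRNAs. ATF3, at 7.05 and 6.29 CPM with NTC and 3.45 to 6.79 with the shRNAs, and BATF3, at 2.11 and 2.12 with NTC and 1.66 to 3.01 with the shRNAs, passed with neither shRNA.

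Members past the threshold numbered 5 with shEVI1-2531, 4 higher and 1 lower, where 17.4% of all 18606 genes tested passed, 9.49% higher and 7.9% lower, and 5 with shEVI1-2532, all higher, where 41.1% did, 21.2% higher. The members' count with shEVI1-2532 was thus near the share of all genes in either direction. For the mean of both shRNAs 7 passed, 6 higher and 1 lower (34.3% of all genes, 17.3% higher and 17.0% lower), and 5 differed between the shRNAs (24.2%). Scaling to the library total moved the median of all genes by -0.16 with shEVI1-2531 and by -0.30 with shEVI1-2532, and left 2 members higher and 1 lower with shEVI1-2531, 5 higher and 2 lower with shEVI1-2532 and 3 higher and 2 lower for the mean. With shEVI1-2531, 3 members passed when NTC day 3, NTC day 6 or either library of this shRNA was left out, and FOS was lost without NTC day 3; for the mean, 4 passed without shEVI1-2532 day 3. FOS, JUN, JUNB and BATF remained past the threshold with shEVI1-2532 in all 12 alternatives run, and FOS and JUN in all 12 for the difference between shRNAs.

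**Figure D5:**
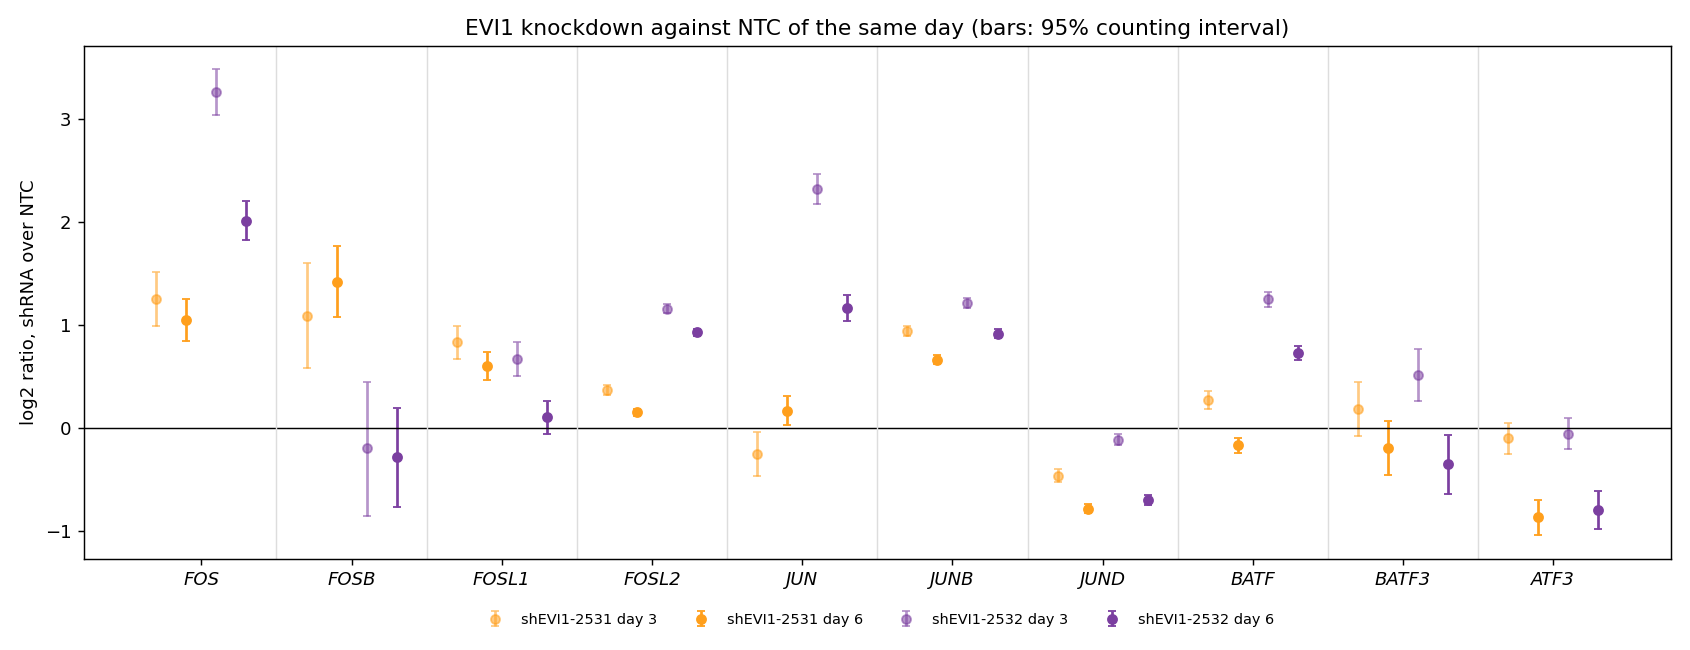
Log2 ratio of each shRNA library to NTC of the same day for the 10 AP-1 genes, in orange for shEVI1-2531 and purple for shEVI1-2532, paler at day 3, with 95% counting intervals as bars. FOS lies between 1.05 and 3.25, JUN is far above 0 with shEVI1-2532, and JUND lies below 0 in all 4 libraries.

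Between days 3 and 6, over the 3 arms, FOSL2 rose by 0.65 (SE 0.11, adjusted p = 0.0024), JUND by 0.57 (SE 0.13, adjusted p = 0.0087) and FOSB by 0.88 (SE 0.25, adjusted p = 0.0239), while ATF3 fell by 0.66 (SE 0.19, adjusted p = 0.0267). These were 4 of 10 members, where 23.8% of all genes passed, and 2 members passed when NTC day 3, NTC day 6 or either shEVI1-2531 library was left out. Scaled to the library total, which moved the median of all genes by 0.19, 4 members were higher and none lower, and the ATF3 ratio of NTC day 6 to day 3 turned from -0.16 to 0.02.

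For the mean of both shRNAs, 16 of 20 reported AP-1 targets rose and none fell, with a median of 1.12 against 0.00 for all genes. Of all genes, 17.3% rose and 17.0% fell. The list of targets was drawn up with earlier results of these data known and shares CSF1R with the monocyte genes. Its count describes the data and is no independent test. The protease MMP9 went from 7.49 and 7.34 CPM with NTC to 55.3 and 60.0 with shEVI1-2531 and 717 and 280 with shEVI1-2532 (4.48, adjusted p = 1.0e-06). The matrix protein THBS1 (4.41, adjusted p = 9.4e-07) and the chemokine CCL2 (2.35, adjusted p = 3.2e-07) rose as well. Of 19 immediate early genes 12 rose and none fell for the mean (median 0.97), although NR4A1 (-1.50, adjusted p = 0.0029) and IER2 (-0.60, adjusted p = 0.023) fell with shEVI1-2532. The rise for the mean was led by the kinase SGK1 (2.02, adjusted p = 7.5e-06), BTG2 (1.70, adjusted p = 2.0e-05) and the factor KLF4 (2.96, adjusted p = 3.4e-05).

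The remaining lists were read against the 17.3% of all genes that rose and the 17.0% that fell for the mean of both shRNAs. Among 15 bZIP partners 5 rose and 1 fell. Among those that rose were BATF2 (1.75, adjusted p = 3.1e-05), a relative of BATF, and BACH1 (0.93, adjusted p = 0.00077), a repressor of oxidative stress genes. Of 25 kinases 6 rose and 3 fell: the p38 genes went apart, MAPK13 up by 1.93 (adjusted p = 1.1e-05) and MAPK11 down (-1.24, adjusted p = 0.00064), and MAP3K7, which acts above JNK and p38, fell (-1.42, adjusted p = 3.0e-06). Of 6 SRF and ternary complex factors 3 rose, SRF (0.41, adjusted p = 0.0166), ELK1 (0.50, adjusted p = 0.0053) and ELK4 (0.66, adjusted p = 0.0073), and ELK3 fell (-0.71, adjusted p = 0.0082). Of 14 feedback genes 3 rose, SPRY4 (1.52, adjusted p = 0.0011) and SPRY1 (0.90, adjusted p = 0.0315) among them, and DUSP8 fell (-2.57, adjusted p = 0.00094). The shares that passed, 6 of 15 bZIP partners, 9 of 25 kinases and 4 of 14 feedback genes, were near the 34.3% of all genes that did.

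The summed level of the monocyte genes was 338 and 393 CPM with NTC at days 3 and 6, 1271 and 1185 with shEVI1-2531 and 4800 and 5903 with shEVI1-2532, and 3 of the 4 passed for the mean of both shRNAs, all higher. CSF1R passed with neither shRNA (-0.32 with shEVI1-2531 and 0.32 with shEVI1-2532). The progenitor gene CD34 fell with shEVI1-2531 (-2.43, adjusted p = 0.000138) and with shEVI1-2532 (-6.78, adjusted p = 1.3e-07), and KIT was higher with the first (0.71, adjusted p = 0.0321) and lower with the second (-1.30, adjusted p = 0.000383). Of the 7 genes on the progenitor list, 3 rose and 1 fell with shEVI1-2531, and 3 rose and 2 fell with shEVI1-2532. CD33 and SPI1 rose with both. Of all genes, 17.4% passed with shEVI1-2531, 41.1% with shEVI1-2532 and 34.3% for the mean of both. The part of the monocyte and progenitor genes in the AP-1 values was not tested.

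Across the 10 pairs of a treated library and its control (6 inhibitor, 4 shRNA), FOS, FOSL1 and JUNB were above the control in 10 of 10, JUN and FOSL2 in 9, FOSB in 8, BATF and ATF3 in 5, BATF3 in 4 and JUND in 3. Scaled to the library total, FOSL1 was above the control in 9, with shEVI1-2532 at day 6 below it (-0.25), JUN and FOSL2 in 8, and BATF and ATF3 in 4. FOS had the widest range of log2 ratios, 0.64 to 3.25. Among the genes whose ratios were most like those of FOS, out of 8591 genes whose mean log2 CPM exceeded 3 in each experiment, were NTN1 (Pearson r = 0.952) and CD53 (0.951), with log2 ratios of 0.43 to 1.66 and 0.21 to 1.64. These values describe 10 pairs that share their controls, and carry no test.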

How the data were processed

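RNA was taken from MUTZ-3 cells and sequenced as paired reads from poly(A)-selected stranded libraries, 16 in all. The deposited files give, per the file headers, a raw count and a TPM value for each gene; the submitters' processing notes name STAR, Picard and featureCounts, with GRCh38, and versions and the strand setting of the counting are not given in the sources used here. The deposited TPM values were divided by the authors over the whole gene span, introns included, so they were not used for levels. Depth ran from 55999673 to 120716213 counts, and 3 counts correspond to between 0.0249 and 0.0536 CPM.

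The members and all gene lists were chosen with earlier results of these data known. Named genes were the 10 members, MECOM, from each list the 3 called genes of smallest p for the mean of both inhibitors and for the mean of both shRNAs, and the 3 genes most like the member of widest range. Counts were tested with edgeR 4.0.16 (R 4.3.3, limma 3.58.1; quasi-likelihood, TMM, genes kept if 3 of 9 PARPi or 2 of 6 knockdown libraries held 10 counts or more), with time point or day as a block. The residual degrees of freedom were 4 for the inhibitors, 2 for their change with time and 2 for the shRNAs. The fit also shares spread across genes, so the p-values do not rest on these degrees of freedom alone. Adjusted p-values are Benjamini-Hochberg values over all genes tested, called under 0.05. The untreated library entered no test. Ratios of single libraries used TMM-scaled CPM, with exact conditional 95% intervals for counting error only, and were called beyond 2-fold. Levels per kb used exon lengths of GENCODE v29. Some genes that this rule or the marker lists name are not reported here. The fits were tested on simulated counts. Alternatives were DESeq2 1.42.0, other scalings and filters, fits without time or day, and leaving out each library or hour. For the change with time they were DESeq2, the other scalings and filters and a slope on hours, with no library or hour left out. Promoters were taken from the RefSeq table. Python 3.11.15 and matplotlib 3.10.9 were used for ratios and figures.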

Additional observations from a re-analysis of the deposited data

Results flagged for a closer look

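The effect of the inhibitors differed between hours for 5 AP-1 genes, by the test of its change with time. Per doubling of the hours the log2 effect changed by 0.95 for FOS, 0.75 for FOSB, 0.46 for FOSL2, 0.74 for JUNB and -0.78 for ATF3, with both inhibitors pointing the same way in each gene between 12 and 48 h. FOS, JUNB and ATF3 passed in all 6 alternatives run for this test, FOSL2 in 5 of 6 and FOSB in 3 of 5. None of these alternatives left out a library or hour, so how far a slope rests on 1 library was not tested.

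The shRNAs against EVI1 differed from each other in 5 AP-1 genes. On the log2 scale, shEVI1-2532 was above shEVI1-2531 by 1.52 for FOS, 1.81 for JUN, 0.94 for BATF and 0.78 for FOSL2, and FOSB was different by -1.51. FOSB counts were small, between 33 and 246 in the knockdown and DMSO libraries.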

How the results depend on the processing

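No paired analysis was possible because every condition is 1 library and the labels give no replicate numbers; time point and day served as blocks. With olaparib, where 1 member was called, the count was 2 by DESeq2 and without a filter, 0 when scaled to the library total, with at least 50 counts in every library or without the time point, and 0 to 3 when a library or hour was left out. With talazoparib (2 called) it was 7, 6, 1, 1 and 0 under the same settings, and 0 to 5. For the mean of both (2 called) it was 6 by DESeq2, 7 without a filter, 1 with at least 50 counts, 0 without the time point, and 0 to 6. Calls over all genes grew under DESeq2 and without a filter as well. For the mean, DESeq2 called 1836 higher and 1580 lower of 17218 genes, and the unfiltered fit 2057 and 1671 of 33282. With talazoparib these were 1951 and 1739 by DESeq2, and 2154 and 1722 without a filter. The change with time went from 5 to 3 when scaled to the library total. With shEVI1-2531 (5 called) it was 3 when scaled to the library total, 0 without the day, and 3 to 5 when a library was left out; for the mean of both shRNAs (7 called) 2 without the day, 0 with both shRNAs as 1 group, and 4 to 7. The difference between shRNAs went from 5 to 2 without the day, and day 6 against day 3 (4 called) gave 2 to 4 when a library was left out. Scaling to the library total turned 4 single ratios whose counting interval lay off 0: BATF with talazoparib at 48 h (-0.0865), FOSL2 (-0.0179) and JUN (-0.00297) with shEVI1-2531 at day 6, and ATF3 for NTC day 6 against day 3 (0.0191); FOSL1 with shEVI1-2532 at day 6 (0.10 to -0.25) and ATF3 with olaparib at 48 h (0.02 to -0.17), whose intervals held 0, changed sign as well. The causes were not tested. Depth limits FOSB and BATF3, whose lowest counts were 33 and 32.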
